A study of Mus musculus with 2 samples.

Results

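The genes described here are 10 markers that have been used to recognise progenitor cells of the vessel adventitia and mesenchymal stromal cells in general: Ly6a, Ly6c1, Cd34, Thy1, Eng, Nt5e, Pi16, Dpt, Gli1 and Vcam1. They were chosen by name from this group of markers, with earlier results of these data known. All 10 were found, each on a single row, among the 20211 gene symbols of the expression tables. RNA was sequenced from primary perivascular cells (PCs) of the aorta of C57BL/6 mice, with 1 WT library and 1 library from mice that lack Kai1 (Kai1-/-), the tetraspanin KAI1 encoded by Cd82. The comparison asks how the transcriptome of PCs differs without Kai1. Both cultures were grown in DMEM with fetal bovine serum, for which the labels and the study's methods give different contents. The study's methods describe adult mice, while the construction of the Kai1 knockout allele, the number of animals behind each culture and its passage are not given in the sources used here.

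The adventitia is the outer coat of an artery, made of fibroblasts, collagen, nerves and small vessels. It holds stromal cells that can give rise to mural cells, adipocytes and myofibroblasts in culture or after injury, and these have been sorted by the surface proteins SCA-1 (encoded by Ly6a), CD34 and PDGFRA or traced by Gli1. Cultured mesenchymal stromal cells are by convention recognised by THY1 (CD90), endoglin (CD105) and CD73 (encoded by Nt5e) on the surface together with the absence of blood cell markers. None of these genes marks a single cell type: Ly6a and Cd34 are also used for haematopoietic stem cells and endothelium, Eng and Vcam1 are classic endothelial genes, and Thy1 also marks neurons and T cells.

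Values were compared in RPKM, which divides the reads of a gene by transcript length and library size and so puts genes of different length on a common scale. Log2 ratios are of Kai1-/- over WT after the addition of 0.1 RPKM to both values, so that changes of low genes are understated. With 1 library per genotype there was no replicate check and no test, so genotype cannot be told apart from animal, culture or preparation, and fewer cells of a type cannot be told apart from less RNA per cell. The tables hold no read counts. Steps of whole reads in the low values corresponded to about 29500000 reads for WT and 26700000 for Kai1-/-, and 95% intervals from the reads estimated in this way cover counting error only. Cd82, the targeted gene, went from 12.8 RPKM (WT) to 2.62 (Kai1-/-). The RPKM values summed to 884463 in WT and 1238190 in Kai1-/-, so the choice of scaling matters. Of the Y-linked genes, 4 were above 0 in WT and 0 were in Kai1-/-. Male cells were thus seen in the WT culture only, and sex cannot be told apart from genotype either.

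The members fell into a high and a low group that were the same in both libraries. Ly6a, Thy1, Ly6c1, Vcam1 and Eng were above 20 RPKM in both, and Dpt, Pi16, Cd34, Gli1 and Nt5e were below 10 RPKM in both. In WT PCs the order of the levels was Ly6a, Thy1, Ly6c1, Vcam1, Eng, Dpt, Pi16, Cd34, Gli1 and Nt5e. The closest neighbours of the high genes were Vcam1, with a 95% counting interval of 44.0 to 46.7 RPKM, and Eng, with 40.8 to 43.3. Pi16, at 1.69 to 2.31, and Cd34, at 1.17 to 1.74, had overlapping intervals, as had Gli1 and Nt5e, and the other neighbours did not. In Kai1-/- PCs Cd34 stood above Dpt and Pi16 and the order was otherwise the same, and there Dpt, Pi16, Gli1 and Nt5e each overlapped with the next in counting interval. Summed over the members, the RPKM was 1985 in WT and 1148 in Kai1-/-, and Ly6a and Thy1 together made up 84.5% and 82.7% of it.

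Of the 10 members, 8 reached an average of 1 RPKM over the libraries and were kept for counting. Among these 8, 3 were more than 2-fold lower in Kai1-/- PCs (Ly6a, Pi16 and Dpt), 1 was more than 2-fold higher (Cd34) and 4 stayed within 2-fold (Ly6c1, Eng, Thy1 and Vcam1). The background by the same filter was 10068 genes, of which 7.81% were lower and 7.98% higher by over 2-fold. The median log2 ratio was -0.85 over the 8 members and 0.08 over all genes kept. The remaining members, Nt5e and Gli1, were too low for this filter. The split depended on scaling: with the libraries scaled to Gapdh, 5 members were lower and 1 was higher, against 1856 and 278 of all genes.

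**Figure D1:**
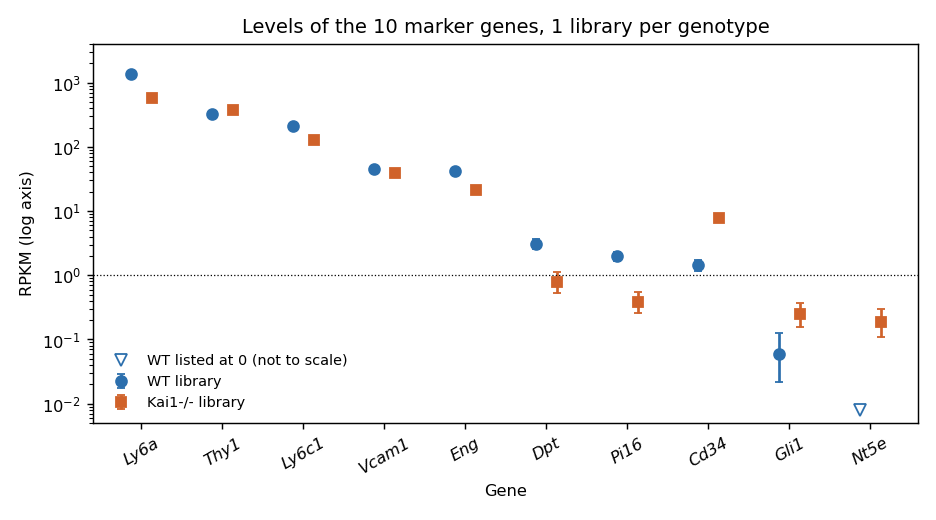
RPKM of the 10 markers, with circles for WT and squares for Kai1-/-, on a log axis, ordered by the level in WT, with 95% counting intervals as error bars. Ly6a stands highest in both libraries, at 1354 and 569 RPKM, Cd34 is the one kept member with a clearly higher point in Kai1-/-, and Nt5e is listed at 0 in WT.

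Ly6a encodes SCA-1, a small GPI-anchored protein of the Ly6 family that is the usual surface marker of mouse stem and progenitor cells. The gene is on the minus strand of mouse chromosome 15, from 74825308 to 74828064 (mm9). WT PCs had 1354 RPKM, where it ranked 109 of 20211 symbols, and Kai1-/- PCs had 569 RPKM, where it ranked 240. The Kai1-/- value was 42.0% of the WT value, a log2 ratio of -1.25 that rested on about 24751 and 9398 reads (95% counting interval -1.28 to -1.22). Of the genes kept, 5.27% had a lower ratio, as had 2.5% of the 200 genes nearest in mean RPKM. Ly6a thus remained among the most abundant surface marker transcripts of both cultures while being lower in the Kai1-/- library. It stayed more than 2-fold lower under each scaling tried, down to -1.75 when both libraries were scaled to Gapdh.

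Ly6c1, which encodes the related GPI-anchored antigen Ly-6C found on monocytes, lymphocytes, endothelium and part of the stromal cells, lies 50.1 kb from Ly6a, from 74875447 to 74879260 on the same strand. Its RPKM was 214 in WT and 128 in Kai1-/-, 60.0% of WT, with a log2 ratio of -0.74 (-0.81 to -0.66). This was the same direction as Ly6a with a smaller difference, within 2-fold on the deposited scale and past it at -1.24 with scaling to Gapdh. The first 90 coding bases of Ly6a, Ly6c1 and its neighbour Ly6c2 are shown because their likeness limits how well reads tell them apart. They were read from the GENCODE M1 transcripts, and capitals mark bases that differ from Ly6c1 at the same position.
Ly6a: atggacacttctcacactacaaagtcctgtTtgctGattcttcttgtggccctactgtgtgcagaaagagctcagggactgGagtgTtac
Ly6c1: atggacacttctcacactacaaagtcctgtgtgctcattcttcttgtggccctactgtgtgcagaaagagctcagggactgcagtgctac
Ly6c2: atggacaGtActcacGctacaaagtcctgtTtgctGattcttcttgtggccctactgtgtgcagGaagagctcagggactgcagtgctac
Over these bases Ly6a differed from Ly6c1 at 4 positions and Ly6c2 at 6. Over the whole coding sequence Ly6c1 and Ly6c2 were identical at 387 of 396 bases (97.7%), with an unbroken identical run of 188 bases, and 43.5% of all 36-base stretches of the Ly6c1 transcript also occurred in that of Ly6c2. The values of these 2 genes are therefore uncertain relative to each other. Ly6a and Ly6c1 were 82.0% identical over 405 aligned columns, and 4.08% of the 36-base stretches of Ly6a also occurred in Ly6c1. Ly6c2 had 20.7 RPKM in WT and 10.5 in Kai1-/-, and Ly6c1 was 10.4 times and 12.3 times as high as Ly6c2 in the respective libraries.

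The Ly6 genes around them did not share one direction. Of 20 Ly6 family genes fixed as a list, 19 were in the tables and 11 were kept, of which 3 were more than 2-fold lower, 2 more than 2-fold higher and 6 within 2-fold, with a median log2 ratio of -0.56. The lower ones were Ly6a, Ly6k at 198 kb, from 2.01 to 0.525 RPKM, and Cd59a, the complement inhibitor, which lies outside this region, from 10.7 to 4.50 RPKM. The higher ones were Slurp1, a secreted ligand of nicotinic receptors 268 kb away, from 18.9 RPKM in WT to 155 in Kai1-/-, and Ly6d, from 0.622 to 1.46 RPKM. Ly6k rested on about 35 and 8 reads, with a counting interval of -3.30 to -0.85 without the added 0.1, which reaches within 2-fold. Ly6d, at a mean of 1.04 RPKM, was just above the filter, and reads were not estimated for Slurp1 and Ly6d. Ly6e, which lies 39.8 kb from Ly6a and is induced by interferon, had 93.0 and 82.5 RPKM, and Lynx1 had 23.3 and 23.5. The neighbours closest to Ly6a thus included genes with a lower value and genes with a nearly equal one.

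**Figure D2:**
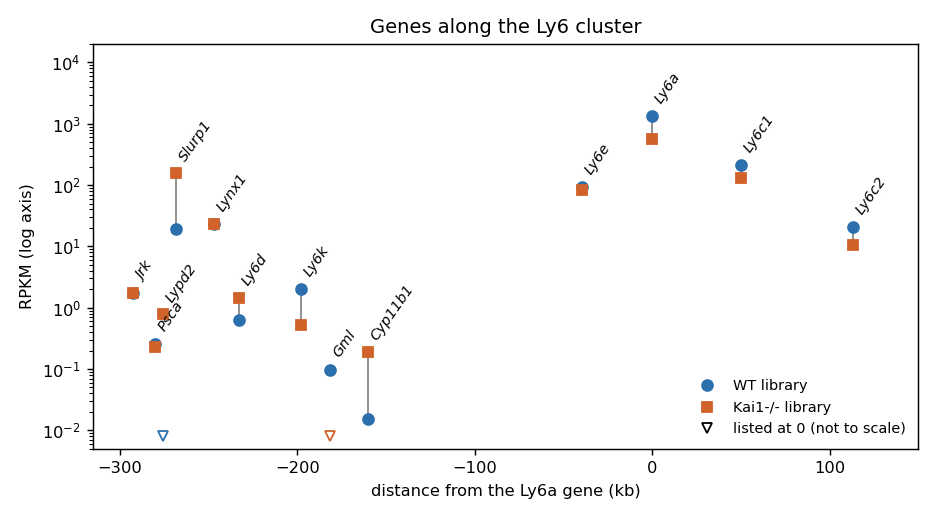
RPKM on a log axis of genes near Ly6a on mouse chromosome 15 against their distance in kb from Ly6a, with circles for WT, squares for Kai1-/- and a line joining the values of a gene, for genes above 0.05 RPKM in at least 1 library. The square lies below the circle for Ly6a, Ly6c1 and Ly6c2, nearly on it for Ly6e and Lynx1, and far above it for Slurp1.

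Ly6a and Ly6c1 are known to be induced by interferons, so the 16 interferon response genes of a fixed list were read beside them. Of these, 12 were kept, and 6 were more than 2-fold lower, 1 was higher and 5 were within 2-fold, with a median log2 ratio of -1.20. The shares over all genes kept were 7.81% lower and 7.98% higher. The lower genes were Usp18, Irf7, Ifit3, Bst2, Ifit1 and Isg15. The transcription factor Irf7 had 10.0 RPKM in WT and 1.03 in Kai1-/-, and the membrane tether Bst2 had 22.3 and 3.19. The higher gene was Irf1, another factor of this response, with 5.49 and 13.5 RPKM. Whether this response had a part in the values of Ly6a and Ly6c1 was not tested.

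Thy1 encodes CD90, a GPI-anchored member of the immunoglobulin superfamily carried by fibroblasts and mesenchymal stromal cells, and its gene is on chromosome 9, from 43851467 to 43856662. WT PCs had 324 RPKM and Kai1-/- PCs 380, with a log2 ratio of 0.23 (0.20 to 0.27). The ratio lay near the middle of the genes kept, of which 59.9% were lower, and its sign turned to -0.27 with scaling to Gapdh and to -0.25 with equal RPKM sums. Thy1 thus differed by less than 2-fold under each scaling tried, while Ly6a, its fellow abundant marker, was lower. The ratio of Ly6a to Thy1 within a library, which does not depend on scaling, was 4.18 in WT and 1.50 in Kai1-/-.

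Nt5e encodes CD73, the GPI-anchored enzyme that turns extracellular AMP into adenosine, on chromosome 9 from 88222447 to 88266927. It was listed at 0 in WT PCs and had 0.188 RPKM in Kai1-/- PCs, about 17 reads (0.110 to 0.301 RPKM), so no fold was computed. In the WT library 3 reads would have been 0.0300 RPKM. By this measure the CD73 transcript, one of the conventional stromal markers, was listed at 0 in one culture and far below 1 RPKM in the other. Of 16 genes of the ectonucleotidase and adenosine pathway, 7 were kept, of which 1 was more than 2-fold lower, 2 were higher and 4 within 2-fold, with a median of 0.48. The adenosine receptor gene Adora2b had 7.44 RPKM in WT and 0.729 in Kai1-/-. The nucleoside transporter gene Slc29a1, the best expressed of the list, had 47.7 and 107 RPKM, and Entpd1, which encodes the ectonucleotidase CD39 upstream of CD73, had 0.692 and 2.39. Dpp4, which encodes an adenosine deaminase binding protein and also marks Pi16 progenitors, had 0.0195 RPKM in WT and was listed at 0 in Kai1-/-.

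Cd34 encodes a sialomucin of the cell surface found on haematopoietic progenitors, endothelium and adventitial stromal cells, and is located at 196765015 to 196787486 of chromosome 1. WT PCs had 1.44 RPKM and Kai1-/- PCs 7.76, which was 5.40-fold more, from about 103 and 501 reads. The log2 ratio was 2.35, with a counting interval of 2.12 to 2.75 for the ratio without the added 0.1. Of the genes kept, 0.556% had a higher ratio, while among the 200 genes nearest in mean RPKM 98.5% had a lower one. Cd34 was thus the one kept member more than 2-fold higher in Kai1-/-, in the opposite direction to Ly6a, with which it is used to sort adventitial progenitors. It remained more than 2-fold higher under each scaling and pseudocount tried, with 1.85 at a pseudocount of 1 RPKM as the smallest ratio. The annotation places a stretch of 148 bases of its exons opposite those of Gm16897, a gene not among the rows of the tables, and the strandedness of the libraries is not given in the sources used here.

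Cd34 is also expressed by endothelium, so endothelial markers were read beside it and beside Eng. Of 16 endothelial genes, 2 were kept, 5 were listed at 0 in WT and 12 in Kai1-/-, and their summed RPKM was 5.93 in WT and 8.74 in Kai1-/-. The 2 kept genes were Egfl7, which encodes a secreted endothelial factor, with 2.28 RPKM in WT and 7.39 in Kai1-/-, and Flt1, which encodes a VEGF receptor, with 1.23 and 1.01. Their median log2 ratio of 0.70 is the midpoint of these. The higher sum in Kai1-/- came from Egfl7. The only other gene of the list with a higher value there was Sox18, at 0.0238 and 0.132 RPKM. Ptprb had 1.10 and 0.198 RPKM, and Tek had 0.409 in WT and was listed at 0 in Kai1-/-. The defining genes Pecam1, with 0.413 RPKM in WT, and Cdh5, with 0.0267, were both listed at 0 in Kai1-/-. Ptprc, which encodes the common leukocyte antigen CD45 and marks blood cells, had 0.0407 and 0.00697 RPKM. The part of other cell types in the value of Cd34 was not tested.

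The 2 protein families to which Cd34 and Pi16 belong were read as a list of 10 genes, of which 7 were kept, 2 were more than 2-fold lower and 2 higher, with a median of 0.56. The other CD34-type sialomucins were Podxl (podocalyxin), with 0.487 RPKM in WT and 1.45 in Kai1-/-, whose mean was below the filter, and Podxl2 (endoglycan), with 1.99 and 3.62. All 3 sialomucin genes had a higher value in Kai1-/- under each scaling tried, and Cd34 was the one of them that was both kept and more than 2-fold higher. Among the CAP domain genes, Crispld2, which encodes a secreted protein, had 3.73 and 0.341 RPKM, R3hdml had 0.454 and 1.55, and the best expressed, Glipr1, had 187 and 276. R3hdml rested on about 12 and 37 reads, with a counting interval of 0.80 to 2.85 without the added 0.1, which reaches within 2-fold. Glipr2 had 85.0 and 68.8 RPKM, and Pi15, whose mean was below the filter, had 0.321 and 0.0528. Past 2-fold, kept CAP genes therefore lay on both sides, with Pi16 and Crispld2 lower and R3hdml higher.

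Pi16 encodes peptidase inhibitor 16, a CAP domain protein that marks the progenitor-like fibroblasts of adventitia and fascia, on chromosome 17 from 29455822 to 29466358. It had 1.98 RPKM in WT PCs and 0.384 in Kai1-/- PCs, 19.4% of WT, from about 160 and 28 reads. Its log2 ratio of -2.10 had 2.02% of the genes kept below it, and the interval without the added 0.1 was -3.00 to -1.78. Dpt encodes dermatopontin, a small matrix protein that binds decorin and collagen and marks the same kind of fibroblast, on chromosome 1 from 166726863 to 166754397. It had 3.06 RPKM in WT and 0.783 in Kai1-/-, 25.6% of WT, from about 130 and 30 reads, with a log2 ratio of -1.84 (-2.59 to -1.39 without the added 0.1). Both markers of progenitor-like fibroblasts were low in both cultures and lower still in the Kai1-/- library. They remained more than 2-fold lower under each scaling and pseudocount tried, with -1.11 for Pi16 and -1.19 for Dpt at a pseudocount of 1 RPKM. Among the 200 genes nearest in mean RPKM, where ratios spread more widely than among abundant genes, 7% were lower than Pi16 and 6.5% lower than Dpt.

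The 150 bases before the annotated start of the members that lay furthest on either side, and of Ly6c1 as the abundant Ly6 gene with an entry, are shown from RefSeq on GRCm38.p6, 5′ to 3′ on the strand of the gene, with capitals for motif matches. RefSeq windows were matched for 6 of the 10 members: Cd34, Dpt, Eng, Ly6c1, Nt5e and Pi16.
Pi16, chr17:29318732-29318881, plus strand: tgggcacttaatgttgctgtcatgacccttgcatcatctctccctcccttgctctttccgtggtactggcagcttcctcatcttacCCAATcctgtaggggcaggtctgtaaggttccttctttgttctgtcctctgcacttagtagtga
Dpt, chr1:164796513-164796662, plus strand: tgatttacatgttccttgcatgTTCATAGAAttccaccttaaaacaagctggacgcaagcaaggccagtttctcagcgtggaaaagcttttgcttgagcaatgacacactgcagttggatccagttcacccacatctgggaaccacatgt
Cd34, chr1:194938671-194938820, plus strand: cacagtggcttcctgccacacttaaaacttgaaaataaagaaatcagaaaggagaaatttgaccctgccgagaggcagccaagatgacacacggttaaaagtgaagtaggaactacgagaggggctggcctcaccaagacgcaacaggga
Ly6c1, chr15:75048838-75048987, minus strand: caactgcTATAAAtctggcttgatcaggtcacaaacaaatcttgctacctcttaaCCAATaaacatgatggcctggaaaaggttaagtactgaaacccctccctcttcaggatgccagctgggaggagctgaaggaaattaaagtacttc
Over 250 bases before each start and on both strands, the letters TATAAA were in the Ly6c1 window and in 12.4% of all 32851 windows, and CCAAT was in the Ly6c1 and Pi16 windows and in 33.8% of all. The STAT-type motif TTCNNNGAA was in the Dpt window and in 7.02% of all windows. The Gli-type motif GACCACCCA was in none of the members' windows and in 0.225% of all windows. The core of the interferon-type motif ISRE and the NF-kB-type motif kappaB were also in none of the members' windows. They were in 2.98% and 0.14% of all windows. Ly6a and Vcam1 had no matched window, so their starts were not read. No motif was shared by the windows of the lower genes Pi16 and Dpt, and a match is only a description of these letters.

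Other genes of adventitial fibroblasts and Pi16-marked progenitors were lower more often than higher, although not throughout. Of 20 such genes on a list without the members, 16 were kept, of which 5 were more than 2-fold lower, 1 was higher and 10 stayed within 2-fold, with a median log2 ratio of -0.53. Of all genes kept, 7.81% were more than 2-fold lower and 7.98% higher on the deposited scale, and these shares depended on scaling. The microfibril gene Mfap5 had 194 RPKM in WT and 43.6 in Kai1-/-, Igfbp6, which encodes a binding protein of insulin-like growth factors, had 203 and 60.8, and Serpinf1, which encodes PEDF, had 641 and 223. Cd248 (endosialin, a surface protein of stromal cells) had 386 and 163 RPKM, and Pdgfra, the receptor gene most often used to sort fibroblasts, had 2.01 and 0.854. The higher gene was Scara5, a ferritin receptor gene, with 0.517 and 3.74 RPKM. Among the lower genes, Mfap5, Igfbp6 and Serpinf1 were abundant, at levels where counting error is small, while the spread between cultures was not measured. The list was chosen with earlier results of these data known, so it is not an independent check of Pi16 and Dpt.

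Several genes that define adventitial fibroblasts in tissue were scarce in both cultures. Pdgfra was at 2.01 and 0.854 RPKM as given above, the proteoglycan gene Lum was listed at 0.0541 in WT and at 0 in Kai1-/-, and Clec3b, which encodes tetranectin, had 0.599 and 0.0948. Dcn, which encodes decorin, was higher, with 10.8 and 8.22 RPKM. The mural and contractile genes, read as a check of the label, were uneven: the smooth muscle actin gene Acta2 had 3823 and 2580 RPKM, Tagln 633 and 307, Pdgfrb 44.7 and 31.6, and Cspg4, which encodes the pericyte antigen NG2, 15.4 and 8.27. Several markers of the labelled cell type were thus present, while 7 of the 16 genes were too low for the filter. Of these, the pericyte genes Rgs5 (0.0630 and 0.233 RPKM) and Kcnj8 (listed at 0 in WT, 0.791 in Kai1-/-) were higher in Kai1-/-. The pericyte gene Abcc9, with 0.0411 and 0.0303 RPKM, was lower there. So were Notch3, Des, Myocd and Anpep, with log2 ratios of -0.97, -1.93, -0.83 and -0.86. Of 16 mural and contractile genes, 9 were kept, 5 of them more than 2-fold lower and 0 higher, with a median of -1.04 and summed RPKM of 4699 and 3028. The shares over all genes kept were 7.81% lower and 7.98% higher. The 5 lower genes were Mcam, Myh11, Cnn1, Lmod1 and Tagln. The other 4 kept genes stayed within 2-fold, Acta2 among them, and whether these differences had a part in those of Pi16 and Dpt was not tested.

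Eng encodes endoglin (CD105), a co-receptor for ligands of the TGF-beta family, above all BMP9 and BMP10, on chromosome 2 from 32502115 to 32538189. It had 42.0 RPKM in WT PCs and 21.4 in Kai1-/- PCs, 51.0% of WT, with a log2 ratio of -0.97 (-1.05 to -0.89) from about 4188 and 1927 reads. This lay just inside the 2-fold limit, 8.14% of the genes kept were lower, and Eng passed the limit with each of the 4 other scalings, at -1.05 when the median of all genes was set to 0 and at -1.47 with scaling to Gapdh. Its exons share a stretch of 124 bases with Ak1 on the same strand (246 and 200 RPKM) and 61 with Fpgs on the other (11.6 and 21.2 RPKM), so that part of its reads could belong to these genes.

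Of 18 genes of the endoglin receptor complex and its targets, 14 were kept, 3 of them more than 2-fold lower, 0 higher and 11 within 2-fold, with a median of -0.17. The lower ones were Acvrl1, the type I receptor gene ALK1 that works with endoglin, with 8.37 RPKM in WT and 1.64 in Kai1-/-, the inhibitor gene Smad7, with 10.1 and 2.99, and Tgfbr3, the co-receptor gene betaglycan, with 4.92 and 2.32. The ligand genes Gdf2, which encodes BMP9, and Bmp10 were listed at 0 in both libraries. The best expressed gene of the list was the target gene Id3, with 235 and 233 RPKM.

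Vcam1 encodes an adhesion molecule that binds the integrin VLA-4 of leukocytes and is carried by stromal cells, activated endothelium and mural cells, on chromosome 3 from 115812938 to 115832606. It had 45.4 RPKM in WT PCs and 39.4 in Kai1-/- PCs, 86.8% of WT, with a log2 ratio of -0.20 (-0.27 to -0.14). The difference was larger than counting error but within 2-fold under each scaling tried, down to -0.70 with scaling to Gapdh. Icam1, a related adhesion molecule often induced together with Vcam1, had 6.69 and 0.704 RPKM, a log2 ratio of -3.08. Of 14 VCAM1 partners and NF-kB responsive genes, 12 were kept, 3 lower (Icam1, Il6 and Itgb7), 1 higher (Cxcl1, 64.6 and 154 RPKM) and 8 within 2-fold, with a median of -0.59. The cytokine gene Il6 had 5.11 and 1.27 RPKM, and Itgb7, which pairs with the VLA-4 alpha chain, had 1.88 and 0.545. The best expressed gene of this list was Itgb1, at 273 and 207 RPKM.

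Gli1 encodes a transcription factor that is both an effector and a target of Hedgehog signalling and marks adventitial cells in lineage tracing. The gene is on chromosome 10, from 126766945 to 126778645. WT PCs had 0.0585 RPKM, about 6 reads with an interval of 0.0215 to 0.127, and Kai1-/- PCs had 0.249, about 23 reads with an interval of 0.158 to 0.373. The intervals do not overlap, but both levels were far below 1 RPKM, and the log2 ratio of 1.14 moved from 0.24 at a pseudocount of 1 RPKM to 1.92 at 0.01. Gli1 also shares a stretch of 55 exon bases with Arhgap9 on the opposite strand, which had 0.399 and 0.418 RPKM, more than Gli1 itself in both libraries. Of 18 Hedgehog genes, 7 were kept, 1 of them lower, 0 higher and 6 within 2-fold, with a median of 0.04, whose sign turned with each other scaling tried, down to -0.45 with scaling to Gapdh. The lower one was Boc, a co-receptor gene, with 3.21 RPKM in WT and 1.18 in Kai1-/-. Ptch1, the receptor gene that is like Gli1 a direct target of the pathway, had 0.559 and 1.44 RPKM and a mean below the filter. The signal transducer Smo was the best expressed at 20.1 RPKM in WT, with a log2 ratio of 0.07, and the ligand gene Shh was listed at 0 in both libraries.

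**Figure D3:**
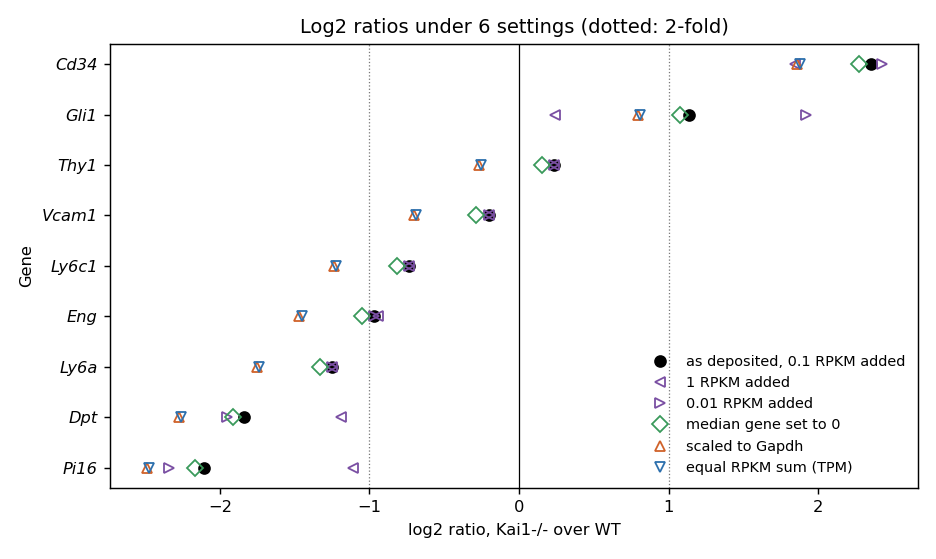
Log2 ratio of Kai1-/- to WT for the 9 members above 0 in both libraries, one row per gene. Filled circles are the ratios as deposited with 0.1 RPKM added, open symbols are 2 other pseudocounts and 3 other scalings, and dotted lines mark 2-fold. Cd34 lies past 2-fold on the higher side and Pi16, Dpt and Ly6a past it on the lower side at every symbol, while Thy1 lies on both sides of 0.

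The other surface markers used for mesenchymal stromal cells were divided. Of 16 such genes, 12 were kept, 4 were more than 2-fold lower, 1 was higher and 7 stayed within 2-fold, with a median of -0.53. Pdgfra stands on this list too, and Mcam, which encodes CD146 of perivascular stromal cells, is also on the mural list. Mcam had 4.90 RPKM in WT and 0.264 in Kai1-/-, a log2 ratio of -3.78, and Susd2, a surface marker of stromal and perivascular cells, had 6.01 and 0.777. Itgav, which encodes the alpha chain of several matrix integrins, had 24.4 and 8.40 RPKM. The higher gene was Nes, which encodes the intermediate filament nestin, with 2.64 and 9.87. Among the genes within 2-fold were the best expressed, the tetraspanin gene Cd63, with 717 and 782 RPKM, the chemokine gene Cxcl12, with 360 and 292, and the hyaluronan receptor gene Cd44, with 35.7 and 24.3. Close to the 2-fold limit on either side of 0 were Itga5, which encodes an integrin chain that binds fibronectin, with 78.1 RPKM in WT and a log2 ratio of -0.96, and the tetraspanin gene Cd9, with 78.7 RPKM and a ratio of 0.91. The list thus held genes on both sides at high and at low levels.

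Genes that mesenchymal stromal cells should lack were below 1 RPKM in both libraries, apart from 1. Of the 8 on the list 1 was kept, Cd14, a co-receptor gene for bacterial lipopolysaccharide, with 1.98 RPKM in WT and 10.3 in Kai1-/-, a log2 ratio of 2.32. Of the MHC class II genes, H2-Aa was listed at 0 in both libraries, H2-Ab1 had 0.681 RPKM in WT and was listed at 0 in Kai1-/-, and H2-Eb1 had 0.184 and 0.204 RPKM. Macrophage and leukocyte genes as a list had a summed RPKM of 27.5 in WT and 6.72 in Kai1-/-, and 3 of its 15 genes in the tables were kept, each of them more than 2-fold lower, with a median of -2.09. These were the receptor gene Csf1r, with 11.7 and 2.66, the adaptor gene Tyrobp, with 10.4 and 2.37, and the lysozyme gene Lyz2, with 3.44 and 1.09. Since Ly6c1 is carried by monocytes as well, these values stand beside its difference, and their part in it was not tested.

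Further cell types of the vessel wall were read as lists. Of 10 Schwann cell and neural crest genes 2 were kept, with 1 more than 2-fold lower, S100b, at 13.7 RPKM in WT and 3.18 in Kai1-/-, and the best expressed gene Pmp22 at 107 and 80.4. The median of the 2 was -1.24. Of 10 mesothelial genes 3 were kept, with Upk1b lower, at 69.1 and 30.5 RPKM, and Krt19, at 29.3 and 91.3, and Upk3b, at 0.975 and 2.81, higher, and the median was 1.44. Of 10 adipocyte genes 3 were kept, with Fabp4 lower, at 10.6 and 4.53 RPKM, Pparg at 2.49 and 2.22, and Retn listed at 0 in WT and at 2.17 in Kai1-/-, and the median was -0.16. These lists rest on few genes and do not share a direction.

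**Figure D4:**
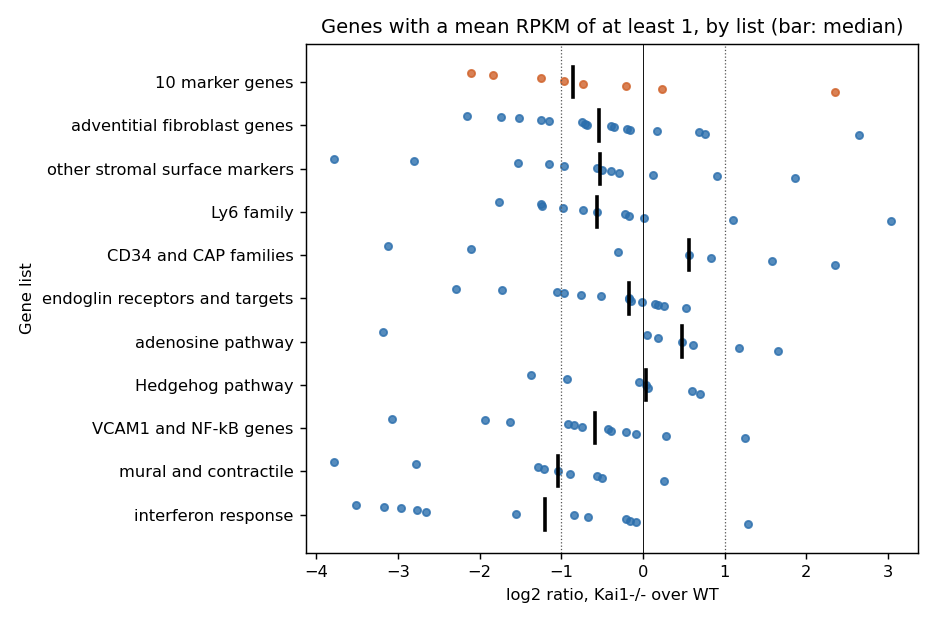
Log2 ratios of Kai1-/- to WT for the kept genes of 11 lists, one row per list with a bar at the median, and points of a row offset vertically only to separate them. Interferon response genes have a median of -1.20 and mural and contractile genes one of -1.04, and most lists hold genes on both sides of 0.

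**Figure D5:**
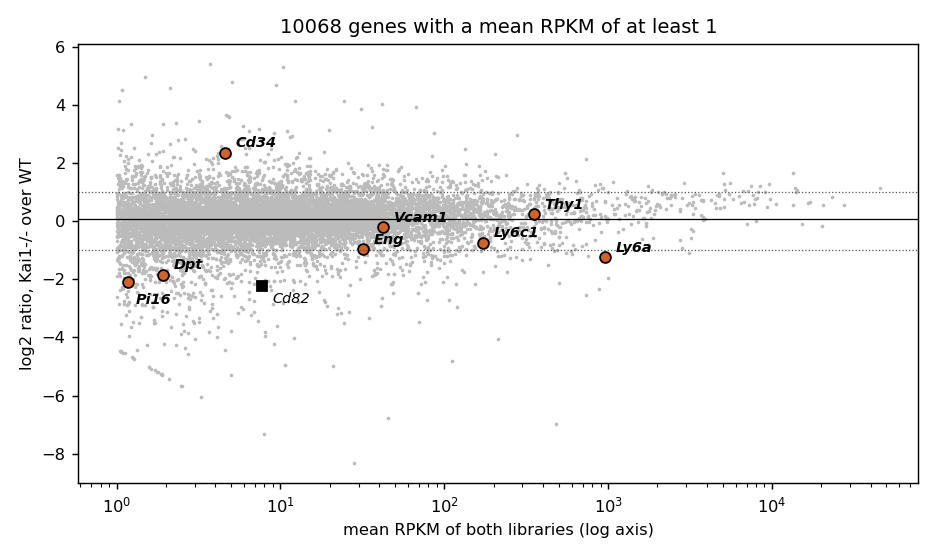
Log2 ratio of Kai1-/- to WT against the mean RPKM of both libraries on a log axis, for all genes kept in grey, the 8 members kept by name, the targeted gene Cd82 as a square, dotted lines at a 2-fold difference and a solid line at the median. Ly6a is the farthest to the right, Pi16 and Dpt are below the lower line at low RPKM, and Cd34 is above the upper line.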

How the data were processed

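Data were 2 tables, 1 per genotype, each from 1 library. Per the labels and the study's methods, the authors aligned reads to mm9 with TopHat2 2.0.9 and Bowtie, measured RefSeq genes and ran Cuffdiff. The authors deposited RPKM values, 1 per row. Library strandedness and read length are not given in the sources used here. Of 20462 rows, 38 had no symbol and were dropped. The 153 symbols on several rows were averaged. The log2 ratio was log2((Kai1-/- + 0.1)/(WT + 0.1)), and genes averaging 1 RPKM or more over the libraries were kept. No p-value was computed. Called means more than 2-fold.

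Reads were estimated from low values of genes with 1 GENCODE M1 transcript longer than 800 bases, less a fragment of 200 bases. Of 579 (WT) and 406 (Kai1-/-) such values, 77.7% and 77.1% lay within 0.15 of a whole read, where a flat spread gives 30%. Reads of a member used its longest transcript and are approximate. Intervals are exact Poisson or conditional binomial (Clopper-Pearson) and cover counting error only.

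The members and the 16 other gene lists were chosen with earlier results of these data known. Named genes were the members, Cd82, Gapdh, and from each list the genes called, the best expressed gene and those of a member's family or locus. Others named (Pdgfrb, Cspg4, Dcn, Lum, Clec3b, Dpp4, Podxl, Pi15, Glipr2, Ptch1, Cd44, Cxcl12, Pparg, Ptprc, Pecam1, Cdh5, Flt1, Ptprb, Tek, Sox18, Itga5, Cd9, H2-Aa, H2-Ab1, H2-Eb1, Shh, Gdf2, Bmp10, Rgs5, Abcc9, Kcnj8, Notch3, Des, Myocd, Anpep and the genes overlapping a member) were added after their values were seen. Alternatives were 2 other pseudocounts, 4 scalings, 3 filters and the highest row of a repeated symbol. Positions are NCBI37 (mm9). Python 3.11.15, numpy 2.4.6, pandas 2.3.3, scipy 1.17.1 and matplotlib 3.10.9 were used.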

Additional observations from a re-analysis of the deposited data

How the results depend on the processing

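With equal RPKM sums and with scaling to Gapdh, 5 members were more than 2-fold lower instead of 3, the additional ones being Ly6c1 (-1.22 and -1.24) and Eng (-1.45 and -1.47), and 1816 and 1856 of all genes were lower against 286 and 278 higher. These scalings moved the median log2 ratio of all genes by -0.48 and -0.49 (Gapdh itself had 4238 RPKM in WT and 5997 in Kai1-/-), so that the member ratios moved with it by construction. With a mean RPKM of at least 5, 1 member was lower and 0 were higher, against 350 and 511 of all genes, since Pi16, Dpt and Cd34 fall below that filter. Without a filter 3 members were higher, Cd34, Gli1 and Nt5e, the latter from 0 in WT, against 1878 genes lower and 1205 higher. Of 63 recomputed member ratios, 39 moved by less than their counting interval extends to either side of its middle. Another 2 counts concern the same 63: 2 changed sign (both Thy1, at -0.27 and -0.25), and 9 crossed the 2-fold limit. Taking the highest row of a repeated symbol could not move a member ratio, since each member stood on a single row. Of 320 recomputed list counts, 266 stayed within 1.5 times, and 8 of 159 list medians changed sign, 4 of them for Hedgehog genes, while no endothelial gene was left with a mean RPKM of at least 5. Depth limits the values of Nt5e, Gli1, Pi16 and Dpt. No paired analysis was possible because the groups hold 1 library each, and for the same reason no library could be left out.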
